A study of Drosophila melanogaster with 4 samples.

Results

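The genes described here are the microRNA (miRNA) precursor genes of Drosophila melanogaster, each of which encodes the short hairpin from which a miRNA is cut. They were chosen as the rows that the authors typed as pre_miRNA, and they made up 238 of the 17475 rows of the deposited table. RNA was measured in ovaries of 7-day-old flies grown at 25 °C. One genotype was wh7, a mutant of wuho, and the other was w1118, which served as wild-type control and is also given as the strain background of the mutant. Each genotype had 2 libraries, so 4 in all. No label says how many females were pooled or whether the libraries of a genotype came from separate cultures, so p-values measure the spread between these libraries only.

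A miRNA gene is transcribed as a long primary transcript, or lies inside the transcript of another gene. In the nucleus Drosha and its partner Pasha cut the hairpin precursor from that transcript. An exportin carries the hairpin to the cytoplasm, Dicer-1 cuts it to a duplex, and one strand is loaded into Argonaute-1, which represses messenger RNAs that pair with its seed. Mirtrons, a class of precursors made from whole short introns, are released by splicing and lariat debranching in place of Drosha. In the fly ovary, bantam and the Dicer-1 pathway are known to be needed for germline stem cell maintenance and division. The wuho protein is the fly counterpart of human WDR4, the partner of the RNA methyltransferase METTL1, and METTL1 has been reported to methylate some miRNAs in human cells.

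The values are FPKM (fragments per kilobase of gene, scaled to the number of mapped reads). The libraries were made from total RNA and read as single 75 bp reads. Mature miRNAs are much shorter than such a read, so a value of a precursor row counts reads of a longer transcript that were assigned to the hairpin's locus, and not the mature miRNA. In bulk tissue, fewer cells of a type and less RNA per cell cannot be told apart. The targeted gene wuho had 0.832 and 0.646 FPKM in wh7 ovaries, against 24.7 and 25.4 FPKM in control ovaries, or 2.95% of the control mean. The sum of all FPKM lay between 682413 and 757801 in the 4 libraries.

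Most precursor rows had no signal. All 4 libraries stood at 0 for 216 of the 238 rows (90.8%), and 22 rows (9.24%) were above 0 in at least 1 library. The rows above 0 numbered 13 and 17 in the wh7 libraries, against 5 and 8 in the control libraries. Both wh7 counts lay above both control counts, and an exact two-sided permutation test gave p = 0.333, the smallest value that 2 against 2 libraries allow. The same direction was present in the table as a whole, where 73.3% and 73.0% of all rows were above 0 in wh7 libraries, against 61.5% and 62.5% in control libraries. Of the 288 small nucleolar RNA rows, another class of short genes that often lie in introns, 83 and 94 were above 0 in wh7 libraries, against 79 and 69 in control libraries. Of the 314 transfer RNA rows, 1 and 4 were above 0 in wh7 libraries, against 1 and 3 in control libraries.

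Of the 22 rows, 12 were above 0 in wh7 libraries only, 3 in control libraries only and 7 in both genotypes. A value above 0 in both wh7 libraries and in neither control library occurred in 4 rows, and the opposite pattern in 0 rows. Over all 13865 rows of the table above 0 in at least 1 library, these patterns made up 7.62% and 0.224%. Of the same 22, 11 rows were above 0 in 1 library, 4 in 2 libraries, 4 in 3 libraries and 3 in all 4.

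The well-known ovary miRNAs were all among the rows at 0. This held for each of 21 listed precursors with reported roles or expression in the ovary, among them bantam (listed as ban), let-7, mir-7, mir-8, mir-184, mir-278, mir-989 and the mir-310 to mir-313 cluster. The 8 precursors of the mir-309 cluster, which the early embryo transcribes, were at 0. So were mir-1, a muscle miRNA, mir-124, a neural one, 18 precursors of testis-enriched clusters, and all 14 mirtrons listed. In precursors of 76 bp or more, a value of 0 allowed up to 3 reads per library. For a hairpin of about 100 bp, that was 50.7 FPKM in control library 1 (the value for mir-190). Single reads, worth less than that, were seen in some rows, so such a 0 sets an upper limit and does not show that a transcript was absent. For shorter precursors, all 14 mirtrons among them, no limit was computed, and their 0 does not show absence either.

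Rows above 0 and rows at 0 differed in length. An annotated length was available for 235 of the 238 rows. Of the 50 precursors shorter than 76 bp, which a 75 bp read covers whole, 0 were above 0, and of the 185 precursors of 76 bp or more, 21 were. Each of the 14 mirtrons, 5 of the 21 ovary precursors, 4 of the 8 precursors of the mir-309 cluster and 1 of the 18 testis precursors were below that length. The rows above 0 were 76 to 150 bp long with a median of 103 bp, and the rows at 0 were 54 to 174 bp long with a median of 93 bp.

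They also differed in position relative to other genes. Positions are those of BDGP6, the build the deposited loci match, with gene models of Ensembl release 115. Of 95 precursors in an intron of a gene on the same strand, 12 were above 0 (12.6%). Of 73 precursors in a same-strand exon, 5 were above 0 (6.85%), and 4 of these 5 lay in the untranslated region (UTR) of a protein-coding gene, where 14 precursors lie in all. The 42 in exons of non-coding RNA genes, primary miRNA transcripts among them, held 1. Of 7 precursors opposite an exon of another gene 3 were above 0, and of 17 opposite an intron 1 was. The 43 precursors that overlap no other gene of the table were all at 0. By the authors' own locus value, 159 precursors shared a locus with at least 1 protein-coding row and 21 of these were above 0, whereas 1 of the 79 others was.

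**Figure D1:**
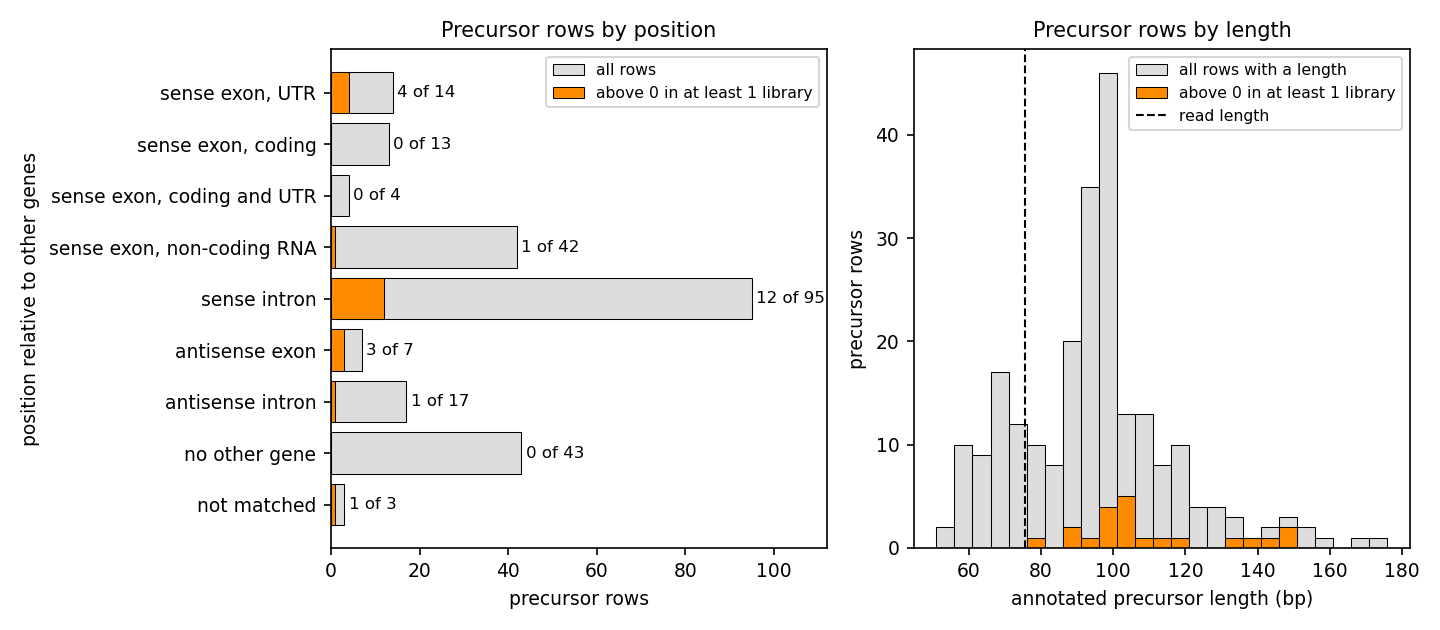
Left, number of precursor rows (x axis) by position relative to other genes (y axis), with all rows in grey and rows above 0 FPKM in at least 1 library in orange. Right, number of precursor rows (y axis) by annotated length in bp (x axis), with the 75 bp read length as a dashed line. No row below 76 bp, and no row clear of other genes, was above 0.

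Among precursors in same-strand introns, those above 0 lay in expressed hosts. The host gene averaged 4.41 to 180 FPKM over the 4 libraries with a median of 51.6 FPKM for the 12 precursors above 0, and 11 of these 12 hosts had at least 10 FPKM. For the 83 intronic precursors at 0 the host ranged from 0 to 2660 FPKM with a median of 30.7 FPKM. An expressed host was not enough for a read: 55 of these 83 had a host of at least 10 FPKM, and in 34 of the 55 the precursor was also 76 bp or longer.

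The FPKM of the precursors could be turned back into reads. For short genes with a single exon, the values were whole multiples of what 1 read is worth at that length. A length model was fitted to 137 short rows of other gene types, with settings chosen to give the highest share of whole reads. It gave whole reads, within 0.05 of a read, for 94.9% of 257 low values. Evenly spread values would be whole in 10%, but the 94.9% is a fitted maximum and not a test of the model. The model was then applied to the precursors, which were not used in the fit. In the 16 precursor rows outside same-strand exons, 30 of 30 values above 0 were whole reads, and the largest distance from a whole read was 0.0305. Single reads made up 12 of these 30 values, 22 of the 30 were 3 reads or fewer, and the highest was 9 reads. In the 5 precursors inside same-strand exons, 0 of 12 values were whole. Whether reads of their host genes entered these values was not tested.

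**Figure D2:**
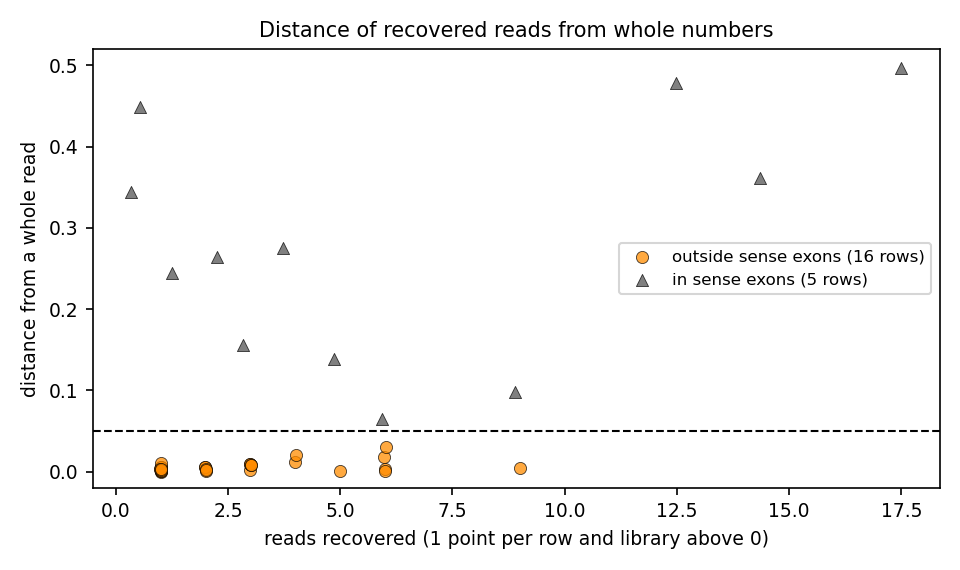
Distance of each recovered read number from the nearest whole number (y axis, in reads) against the read number itself (x axis), 1 point per precursor row and library above 0. Orange circles are the 16 rows outside same-strand exons, which lie at or below 0.0305, and grey triangles the 5 rows inside such exons, which all lie above the dashed line at 0.05.

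In all, recovered reads of the precursor rows with a length summed to 51.8 and 56.0 in wh7 libraries. In control libraries they summed to 21.8 and 28.4. These sums include the 5 rows in same-strand exons, whose values were not whole reads. Of these, mir-4961 alone held 12.5 and 17.5 in wh7 libraries, against 8.9 and 14.4 in control libraries. Both wh7 sums exceeded both control sums, with an exact two-sided permutation p of 0.333, again the smallest possible. The effective size of the 4 libraries differed little: 1 read was worth 0.990 and 1.02 times as much FPKM in wh7 libraries 1 and 2, and 1.03 times as much in control library 2, as in control library 1. All intervals and floors below cover counting error only. A single read has an exact 95% Poisson interval of 0.0253 to 5.57 reads, and 3 reads one of 0.619 to 8.77 reads, so the counting intervals of 1 read and of 3 reads overlap.

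**Figure D3:**
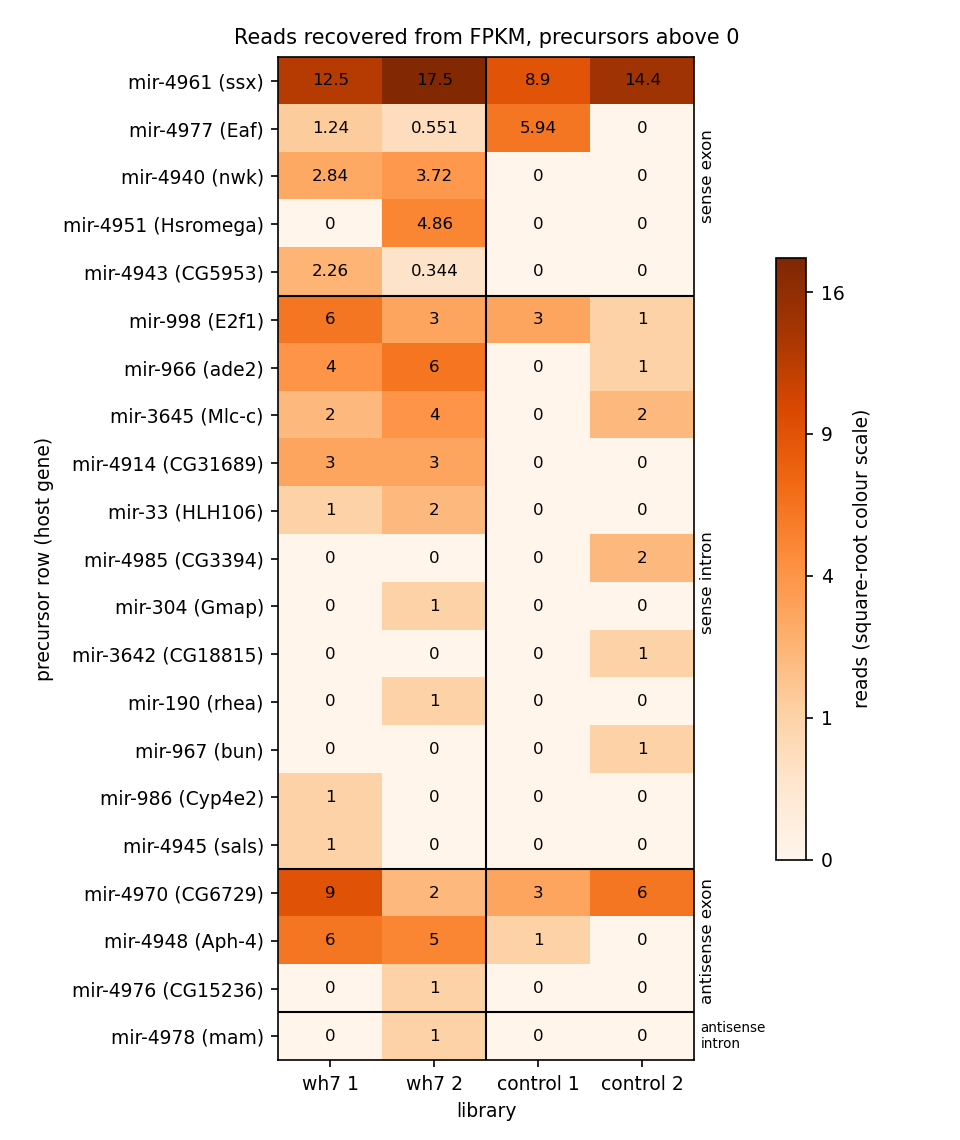
Reads recovered from FPKM for the 21 precursor rows above 0 that have an annotated length, in each library (columns), shaded on a square-root scale. Brackets give the host gene, or the gene on the opposite strand for antisense rows. mir-4961, inside a same-strand exon and without whole reads, has the highest recovered number in every library. The rows from mir-4914 to mir-4945 among the same-strand introns hold at most 3 reads in any library.

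Differences between genotypes were tested with limma on log2(FPKM + 1), over all rows that reached 1 FPKM in 2 or more libraries. This left 11 of the 238 precursors. At an adjusted p under 0.05, 4 were called higher in wh7 ovaries and 0 lower, and at an unadjusted limma p under 0.05, 6 were higher and 0 lower, where 52.5% of all rows passed that unadjusted threshold (26.1% higher and 26.4% lower). Over all 8580 rows tested, 39.7% were called, with 21.2% higher and 18.4% lower in wh7. The groups did not overlap in 6603 rows (77.0%). The 4 called precursors were at 0 in both control libraries and passed the filter through the wh7 libraries alone, so neither their number nor their adjusted p is evidence of a difference, and both are given as a description. Their estimates are set by the pseudocount: that of mir-4914 was 6.02 with a pseudocount of 1, 9.32 with 0.1 and 12.6 with 0.01, and that of mir-33 was 4.70, 7.97 and 11.3. For mir-966, mir-3645, mir-4948 and mir-4977, 1 control library was at 0, so the control libraries alone would not have passed the filter. Their p-values, and read ratios where given, are likewise a description and not evidence of a difference. In the authors' deposited table, 0 precursors were marked significant and the lowest q-value among them was 0.306.

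mir-4914 lies in an intron of CG31689 (chromosome 2L, 2737568 to 2737661, plus strand). It had 62.7 and 64.9 FPKM in wh7 ovaries, which is 3 reads in each library, against 0 in both control ovaries. The groups did not overlap. A 0 in control library 1 allows up to 63.2 FPKM, so no fold is given. Its host CG31689 had 61.5 and 67.5 FPKM in wh7 ovaries, against 64.1 and 63.0 FPKM in control ovaries, and did not pass the test (limma adjusted p = 0.865).

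mir-33 lies in an intron of HLH106 (chromosome 3L, 19797961 to 19798059, plus strand). HLH106 encodes the fly sterol regulatory element binding protein, a transcription factor of lipid synthesis, and in mammals mir-33 also lies in an intron of such a gene. The precursor had 17.3 and 35.9 FPKM in wh7 ovaries, that is 1 read and 2 reads, against 0 in both control ovaries. A 0 allows up to 52.5 FPKM in control library 1, more than either wh7 value. HLH106 itself had 47.6 and 53.2 FPKM in wh7 ovaries, against 58.1 and 52.1 FPKM in control ovaries, and the groups overlapped (limma adjusted p = 0.368).

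mir-4940 lies in a UTR of nwk (chromosome 3L, 9144593 to 9144697, plus strand), which encodes Nervous wreck, a membrane-bending protein of synaptic terminals. It had 39.9 and 54.1 FPKM in wh7 ovaries, against 0 in both control ovaries, where a 0 allows 42.6 FPKM in library 1. The host nwk had 0.501 and 0.871 FPKM in wh7 ovaries, against 0.0546 and 0.0218 FPKM in control ovaries. These levels were too low for the filter and were not tested, and the precursor stood in the same 2 libraries in which its host was higher.

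mir-4943 shares 65 of its 117 bases with a UTR of CG5953 (chromosome 2L, 16528375 to 16528491, minus strand). It had 21.6 and 3.40 FPKM in wh7 ovaries, against 0 in both control ovaries, where a 0 allows up to 3 reads. Both wh7 values lay below that limit, and the call (limma adjusted p = 0.0321) was lost without control library 1 or 2 (limma adjusted p = 0.116 and 0.0811). CG5953 was higher in wh7 ovaries, with 30.2 and 35.1 FPKM in wh7, against 23.6 and 23.8 FPKM in control (1.37-fold, limma adjusted p = 0.0393), but not with wh7 library 2, control library 1 or control library 2 left out (limma adjusted p = 0.136, 0.162 and 0.12).

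The other 7 tested precursors did not pass the threshold. mir-4961 had the highest recovered read numbers and lies in a UTR of ssx, sister of Sex-lethal (chromosome X, 1373623 to 1373755, plus strand). All 133 of its bases lie in an exon of ssx, and its values were not whole reads. Whether reads of ssx entered the values of mir-4961 was not tested. The level of mir-4961 was 75.7 and 109.9 FPKM in wh7 ovaries, against 54.6 and 91.1 FPKM in control ovaries. The groups overlapped, the estimate was 0.37 on the log2(FPKM + 1) scale (SE 0.302, limma adjusted p = 0.370), and ssx itself had 72.2 and 77.3 FPKM in wh7 against 101.1 and 81.8 FPKM in control (limma adjusted p = 0.134).

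mir-998 lies with mir-11 in an intron of the cell cycle transcription factor gene E2f1 (chromosome 3R, 21621879 to 21622021, minus strand). It had 28.1 and 14.5 FPKM in wh7 ovaries, against 14.2 and 4.90 FPKM in control ovaries, which are 6 and 3 reads against 3 reads and 1 read. Both wh7 values were above both control values, with an estimate of 1.17 on the log2(FPKM + 1) scale (SE 0.548, limma adjusted p = 0.149). Pooled over libraries, the read ratio of wh7 to control was 2.23 with an exact 95% interval of 0.622 to 9.90. The level of E2f1 was 99.5 and 94.7 FPKM in wh7 ovaries against 120.1 and 113.3 FPKM in control ovaries, with the groups apart in the other direction and a limma adjusted p of 0.0508.

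mir-966 lies in an intron of ade2, an enzyme gene of purine synthesis (chromosome 2L, 6045627 to 6045713, minus strand). It had 110.8 and 172.1 FPKM in wh7 ovaries (4 and 6 reads), against 0 and 28.97 FPKM in control ovaries (0 reads and 1 read). The pooled read ratio was 9.90, with an exact 95% interval of 1.41 to 430. That interval rests on 1 control read and leaves out the spread between libraries. The limma adjusted p was 0.0769 for an estimate of 4.67 on the log2(FPKM + 1) scale (SE 1.62). With control library 1 or 2 left out, the estimate was 2.21 and 7.12. The host ade2 had overlapping groups, with 36.1 and 42.6 FPKM in wh7 against 31.8 and 40.4 FPKM in control (limma adjusted p = 0.549).

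mir-3645 lies in an intron of Mlc-c, which encodes the essential light chain of non-muscle myosin (chromosome X, 5622280 to 5622416, minus strand). It had 10.9 and 22.6 FPKM in wh7 ovaries (2 and 4 reads), against 0 and 11.4 FPKM in control ovaries (0 and 2 reads), and the groups overlapped. The pooled read ratio was 2.97 with an exact 95% interval of 0.531 to 30.1. The limma adjusted p was 0.203 for an estimate of 2.25 on the log2(FPKM + 1) scale, or 4.07 without control library 2. Its host did change: Mlc-c had 222.9 and 236.3 FPKM in wh7 ovaries against 110.0 and 121.6 FPKM in control ovaries (1.98-fold, limma adjusted p = 0.00545), and it was called in all 13 alternatives tried.

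Both tested antisense precursors lie opposite exons. mir-4948 lies opposite Aph-4, an alkaline phosphatase gene (chromosome 3R, 31051098 to 31051203, minus strand), and had 81.4 and 70.2 FPKM in wh7 ovaries (6 and 5 reads), against 13.7 and 0 FPKM in control ovaries (1 read and 0 reads). The groups did not overlap, and the pooled read ratio was 10.9 (exact 95% interval 1.58 to 469). That interval rests on 1 control read and leaves out the spread between libraries. The limma adjusted p was 0.0526 for an estimate of 4.32 on the log2(FPKM + 1) scale (SE 1.27). With control library 1 or 2 left out, the estimate was 6.26 and 2.38. Aph-4 had 44.4 and 82.0 FPKM in wh7 ovaries against 9.35 and 17.9 FPKM in control ovaries (4.64-fold, limma adjusted p = 0.0208), a call lost without control library 1 (limma adjusted p = 0.0715). The library kit keeps the strand of the RNA, per the labels, but no source used here says whether the counting used it. The values of mir-4948 were whole reads, unlike those of precursors in same-strand exons. Whether reads of Aph-4 entered the values of mir-4948 was not tested.

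mir-4970 lies opposite CG6729 (chromosome 2L, 10741885 to 10741987, plus strand). It had 135 and 31.1 FPKM in wh7 ovaries (9 and 2 reads), against 45.6 and 94.3 FPKM in control ovaries (3 and 6 reads). The groups overlapped, the pooled read ratio was 1.21 (exact 95% interval 0.456 to 3.30), and the limma adjusted p was 0.993. CG6729 had 11.2 and 12.5 FPKM in wh7 against 11.9 and 12.4 FPKM in control (limma adjusted p = 0.871). In control library 1 a single read of mir-4970 is worth 15.2 FPKM, more than the level of the gene opposite.

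mir-4977 lies in a UTR of Eaf, a gene for a factor associated with transcription elongation (chromosome 2R, 7406733 to 7406837, minus strand). It had 17.5 and 8.004 FPKM in wh7 ovaries, against 84.2 and 0 FPKM in control ovaries, so the control libraries held both the highest and the lowest value. The limma adjusted p was 0.871, with an estimate of 3.69 on the log2(FPKM + 1) scale without control library 1 and of -2.72 without control library 2 (limma adjusted p = 0.0278 and 0.0297). Eaf had 55.1 and 53.5 FPKM in wh7 against 67.7 and 60.8 FPKM in control (limma adjusted p = 0.0933). The remaining protein-coding rows of these loci that could be tested were CG31643 beside mir-966, and CG14102 and Ir76a beside mir-33, with limma adjusted p values of 0.0567, 0.337 and 0.207. Ir76a was called lower with quantile normalization (limma adjusted p = 0.0409).

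**Figure D4:**
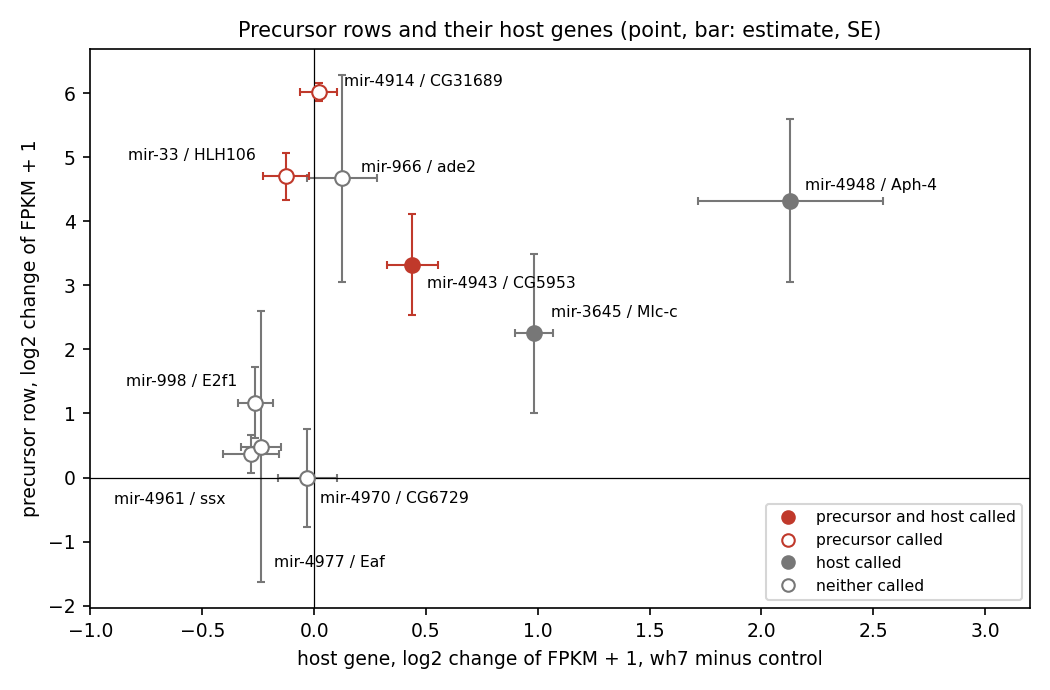
Estimated change of 10 tested precursor rows (y axis) against that of their host genes (x axis), both as wh7 minus control on the log2(FPKM + 1) scale, with standard errors as bars. For mir-4948 and mir-4970 the x axis shows the gene on the opposite strand. mir-4914 and mir-33, at 0 in both control libraries, stand at 6.02 and 4.70, heights set by the pseudocount, beside hosts near 0. mir-4948 stands beside Aph-4 with an estimate of 2.13, and nwk, the host of mir-4940, was too low to test.

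A further 11 precursors were above 0 in 1 library and were not tested. In wh7 library 1 these were mir-986, in an intron of Cyp4e2, and mir-4945, in an intron of sals, with 1 read each. In wh7 library 2 they were mir-190 in rhea, mir-304 in Gmap, mir-4976 opposite CG15236 and mir-4978 opposite mam, each with 1 read. The same library held mir-4951, in an exon of Hsromega, at 19.97 FPKM, and mir-281-2, which had no annotated position, at 23.4 FPKM. In control library 2 they were mir-967 in bun and mir-3642 in CG18815, with 1 read each, and mir-4985 in CG3394, with 2 reads.

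Of the 10 genes that hold these precursors or lie opposite them, 9 could be tested and 5 were called. These were 4 higher and 1 lower in wh7 ovaries, where 39.7% of all rows were called (21.2% higher and 18.4% lower). sals, needed for actin filament length in sarcomeres, had 7.92 and 8.26 FPKM in wh7 ovaries against 0.602 and 0.868 FPKM in control ovaries (11-fold, limma adjusted p = 0.00514). rhea, which encodes talin and links integrins to actin, had 37.95 and 44.3 FPKM in wh7 against 25.8 and 28.7 FPKM in control (1.51-fold, limma adjusted p = 0.0246). Hsromega, a stress-inducible nuclear non-coding RNA, had 71.0 and 147 FPKM in wh7 against 29.3 and 27.9 FPKM in control (3.82-fold, limma adjusted p = 0.0209). Gmap, a Golgi protein gene that also holds mir-12 and mir-283, was 1.52-fold higher in wh7 (limma adjusted p = 0.0188). CG3394, whose precursor was read in a control library, had 8.09 and 8.62 FPKM in wh7 against 24.4 and 25.0 FPKM in control (0.339-fold, limma adjusted p = 0.00516). The genes bun, mam (opposite mir-4978), Cyp4e2 and CG18815 did not pass the test, with limma adjusted p values of 0.0902, 0.245, 0.583 and 0.146. CG15236, opposite mir-4976, was too low to test. Of the 2 protein-coding rows that share the locus of mir-281-2, Oda (ornithine decarboxylase antizyme) was 1.44-fold higher in wh7 (limma adjusted p = 0.0175) and SmD3 was not called (limma adjusted p = 0.103). Without control library 1, the limma adjusted p was 0.129 for rhea, 0.106 for Gmap, 0.0832 for Oda and 0.0811 for Hsromega. The call of Hsromega was also lost without control library 2, that of Gmap without wh7 library 2 and that of rhea without either, with limma adjusted p values from 0.0508 to 0.0740.

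Because the precursors had so few reads, the genes around them are given as well, though their level does not measure a precursor. Rows sharing a deposited locus with a precursor, some only neighbours or on the opposite strand, included 241 protein-coding rows. The test could be run on 142 of them. Of these 142, 60 were called (42.3%), 40 higher and 20 lower in wh7 ovaries, beside the 39.7% called over all rows. Their median log2 change was 0.01, against -0.04 over all rows tested. Protein-coding genes that hold a precursor on their own strand numbered 114. Of the 90 tested, 37 were called, 24 higher and 13 lower, with a median log2 change of -0.03.

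Some hosts of precursors at 0 were higher in wh7 ovaries. trol, which encodes the basement membrane protein perlecan and overlaps mir-4955, had 109.6 and 144.2 FPKM in wh7 ovaries against 25.3 and 35.5 FPKM in control ovaries (4.17-fold, limma adjusted p = 0.00688). Mmp2, a matrix metalloprotease used by follicle cells in ovulation and host of mir-307a, had 24.8 and 35.5 FPKM in wh7 against 2.79 and 5.92 FPKM in control (6.92-fold, limma adjusted p = 0.01). sty, which encodes the receptor tyrosine kinase inhibitor Sprouty and holds mir-2282, was 3.08-fold higher (limma adjusted p = 0.00909), and cv-c, a RhoGAP gene that holds mir-2281, was 4.79-fold higher (limma adjusted p = 0.00570). MFS17, which holds mir-2279, was 2.13-fold higher (limma adjusted p = 0.00637). spi, the gene of the EGF receptor ligand Spitz that holds mir-2a-1, mir-2a-2 and mir-2b-2, was 1.42-fold higher (limma adjusted p = 0.0134). CG42524, host of mir-278, had 1.39 and 1.68 FPKM in wh7 ovaries against 0.124 and 0.154 FPKM in control ovaries (limma adjusted p = 0.0153). None of the precursors held by these 7 genes was above 0 in any library. The calls of spi and CG42524 were lost without control library 1 or 2, with limma adjusted p values from 0.0664 to 0.123. With quantile normalization the estimate of CG42524 was 0.117 on the log2 scale and was not called (limma adjusted p = 0.643).

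Other hosts of precursors at 0 were lower in wh7 ovaries. grp, the Chk1 kinase gene that holds mir-9b, mir-9c, mir-79 and mir-306, had 144 and 124 FPKM in wh7 ovaries against 188 and 176 FPKM in control ovaries (0.736-fold, limma adjusted p = 0.0285). jigr1, host of mir-92a and mir-92b, was 0.745-fold the control level (limma adjusted p = 0.0393). SKIP, host of the mirtron mir-1010, was 0.582-fold (limma adjusted p = 0.00716), and wts, the Hippo pathway kinase gene that holds the mirtron mir-1013, was 0.750-fold (limma adjusted p = 0.0401). The host of mir-7, bl, had a limma adjusted p of 0.0525 and was not called. The precursors of these hosts were at 0 in all libraries. The calls of grp, jigr1 and wts were lost with no filter and with quantile normalization. They were also lost without wh7 library 2, control library 1 or control library 2.

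Non-coding RNA genes that hold a precursor on their own strand, among them the annotated primary transcripts, numbered 34, and 25 were above 0 in at least 1 library. Both wh7 values lay above both control values in 17 of these 25 (68.0%) and below both in 1 (4%), where the same patterns were found in 41.1% and 26.3% of all rows above 0. Those shares cover rows of all levels, whereas most of these non-coding genes were low, and no share was computed for rows as low. Only 7 were high enough to test, and 2 were called, Hsromega higher and CR43836, which holds mir-31b, lower (18.6 and 15.99 FPKM in wh7 against 24.7 and 23.8 FPKM in control, limma adjusted p = 0.0404, or 0.114 to 0.175 without wh7 library 2 or either control library). let-7-C, the primary transcript of let-7, mir-100 and mir-125, had 0.525 and 0.383 FPKM in wh7 ovaries against 0.0786 and 0.0203 FPKM in control ovaries and was not tested. CR43857, which holds mir-275, had 4.49 and 1.87 FPKM in wh7 against 0.881 and 0.704 FPKM in control (limma adjusted p = 0.0578). CR43651, which holds mir-14, had 6.87 and 3.78 FPKM in wh7 against 2.95 and 2.60 FPKM in control (limma adjusted p = 0.110).

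The primary transcripts of other ovary miRNAs were low in both genotypes. CR43334, which holds bantam, had 0.669 and 1.23 FPKM in wh7 ovaries against 0.786 and 1.02 FPKM in control ovaries, with overlapping groups (limma adjusted p = 0.944), but was called lower with quantile normalization (limma adjusted p = 0.0282). CR43650, which holds mir-8, had 0.468 and 0.849 FPKM in wh7 against 0.274 and 0.206 FPKM in control. CR44206, which holds mir-184, had 0.245 and 0.177 FPKM in wh7 against 0.0990 and 0.195 FPKM in control. The transcript of the mir-309 cluster, CR44504, was at 0 in 3 libraries and at 0.0226 FPKM in wh7 library 2, and those of mir-1 and mir-124 were at 0 throughout.

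Marker genes of several ovary cell types also differed between the genotypes. The marker lists include hosts of precursors, such as Mmp2 among the follicle cell markers and Appl among the neural markers. Over all rows tested, 21.2% were called higher and 18.4% lower in wh7. All 12 of 12 muscle sheath markers were called higher, and their summed level was 1290 and 2320 FPKM in wh7 ovaries against 98.6 and 124 FPKM in control ovaries. Hemocyte markers summed to 238 and 330 FPKM in wh7 against 37.8 and 56.7 FPKM in control (5 of 6 tested called higher), and follicle cell markers to 414 and 476 FPKM in wh7 against 249 and 274 FPKM in control (6 of 7 tested called higher and 1 lower). Germline markers summed to 1280 and 1370 FPKM in wh7 against 1510 and 1520 FPKM in control, with 1 of 8 called higher and 3 lower. Neural markers summed to 12.4 and 13.4 FPKM in wh7 against 2.50 and 3.26 FPKM in control (3 of 3 tested called higher). The part of cell composition in the values of the precursors and their hosts was not tested.

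The genes that make and use miRNAs were all expressed. A list of 30 genes of miRNA processing, silencing and the related small interfering RNA (siRNA) branch could be tested in full. Of these, 11 were called, 9 lower and 2 higher in wh7 ovaries, which is 36.7% beside 39.7% over all rows. Leaving out any 1 library lowered the number of calls among the 30, as it did over all rows. The median log2 change of the 30 was -0.27, against -0.04 over all rows tested. The values over all rows, here and below, cover rows of all levels, whereas the lowest of these genes, Hen1, had 9.89 FPKM in wh7 library 1. With a filter of 5 FPKM the median over all rows was -0.108, and 41.4% of calls were higher in wh7, against 53.5%. No share was computed for rows at the level of these genes.

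In the nuclear and cytoplasmic processing steps, 3 of 6 genes fell and 0 rose, where 18.4% of all rows fell and 21.2% rose. pasha, the double-stranded RNA binding partner of Drosha, had 18.6 and 19.9 FPKM in wh7 ovaries against 31.4 and 27.8 FPKM in control ovaries (0.650-fold, limma adjusted p = 0.0206). Ranbp21, the fly Exportin-5, had 44.2 and 45.7 FPKM in wh7 against 61.3 and 58.3 FPKM in control (0.751-fold, limma adjusted p = 0.0216). Dcr-1, which cuts the hairpin, had 15.3 and 15.6 FPKM in wh7 against 21.3 and 19.9 FPKM in control (0.752-fold, limma adjusted p = 0.0482), a call that was lost in 8 of 13 alternatives, among them each library left out (limma adjusted p from 0.116 to 0.219). drosha itself had 24.6 and 25.4 FPKM in wh7 against 31.2 and 31.2 FPKM in control, with the groups apart and a limma adjusted p of 0.0530. loqs, the partner of Dcr-1, was not called (limma adjusted p = 0.128). AGO1, the miRNA Argonaute, had 81.7 and 77.2 FPKM in wh7 against 84.2 and 76.4 FPKM in control, with overlapping groups (limma adjusted p = 0.912). Without control library 1 or 2 the limma adjusted p of pasha was 0.119 and 0.0526, and that of Ranbp21 missed the threshold when any 1 of the 4 libraries was left out (0.0533 to 0.142).

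In the siRNA branch, which takes a minority of miRNAs, 2 of 4 genes rose and 1 fell, where 21.2% of all rows rose and 18.4% fell. AGO2, its Argonaute, rose to 131 and 132 FPKM in wh7 ovaries, against 63.9 and 79.6 FPKM in control ovaries (1.83-fold, limma adjusted p = 0.0111), and was called in all 13 alternatives. Dcr-2 had 39.1 and 43.7 FPKM in wh7 against 32.1 and 30.9 FPKM in control (1.31-fold, limma adjusted p = 0.0391). Its partner r2d2 was lower, with 43.8 and 43.5 FPKM in wh7 against 60.5 and 57.0 FPKM in control (0.743-fold, limma adjusted p = 0.0203). Hen1, which methylates the ends of small RNAs in Argonaute-2, did not pass the test (limma adjusted p = 0.301). The calls of Dcr-2 and r2d2 were lost without wh7 library 2, control library 1 or control library 2, with limma adjusted p values from 0.0652 to 0.151.

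Of 4 genes that trim or tail miRNAs or debranch mirtrons, 3 fell, where 18.4% of all rows fell. Nbr, the Nibbler exonuclease that trims miRNAs in Argonaute-1, had 50.2 and 51.4 FPKM in wh7 ovaries against 69.2 and 65.1 FPKM in control ovaries (0.756-fold, limma adjusted p = 0.0220). CG16940, the Dis3l2 exonuclease that degrades uridylated RNA, was 0.696-fold the control level (limma adjusted p = 0.0382). ldbr, the lariat debranching enzyme on which mirtrons depend, had 12.9 and 13.1 FPKM in wh7 against 21.0 and 23.1 FPKM in control (0.591-fold, limma adjusted p = 0.0144). CG1091, the uridylyltransferase Tailor, missed the threshold (limma adjusted p = 0.0512). Without control library 1, the limma adjusted p was 0.147 for Nbr, 0.164 for CG16940 and 0.0649 for ldbr. The calls were also lost without control library 2 for Nbr and ldbr, without wh7 library 2 for Nbr and CG16940, and without wh7 library 1 for Nbr, with limma adjusted p values from 0.0538 to 0.104.

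Among 10 genes of silencing and mRNA decay, 2 fell and 0 rose, a share of falls (20%) close to the 18.4% of all rows. me31B, an RNA helicase that represses stored messenger RNAs in oocytes, had 890 and 852 FPKM in wh7 ovaries against 1747 and 1754 FPKM in control ovaries (0.497-fold, limma adjusted p = 0.00679), and was called in all 13 alternatives. twin, a CCR4-type deadenylase, had 104 and 90.5 FPKM in wh7 against 158 and 140 FPKM in control (0.651-fold, limma adjusted p = 0.0168, or 0.0926 without control library 1). gw, which encodes the Argonaute-1 partner GW182, had 159 and 148 FPKM in wh7 against 216 and 178 FPKM in control (limma adjusted p = 0.0711). None of the 6 cap-binding, chaperone and other genes was called by limma, with 3 at an unadjusted p under 0.05, a threshold that 52.5% of all rows passed. Germline markers had a lower sum in wh7 ovaries, as given above, and its part in these values was not tested.

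**Figure D5:**
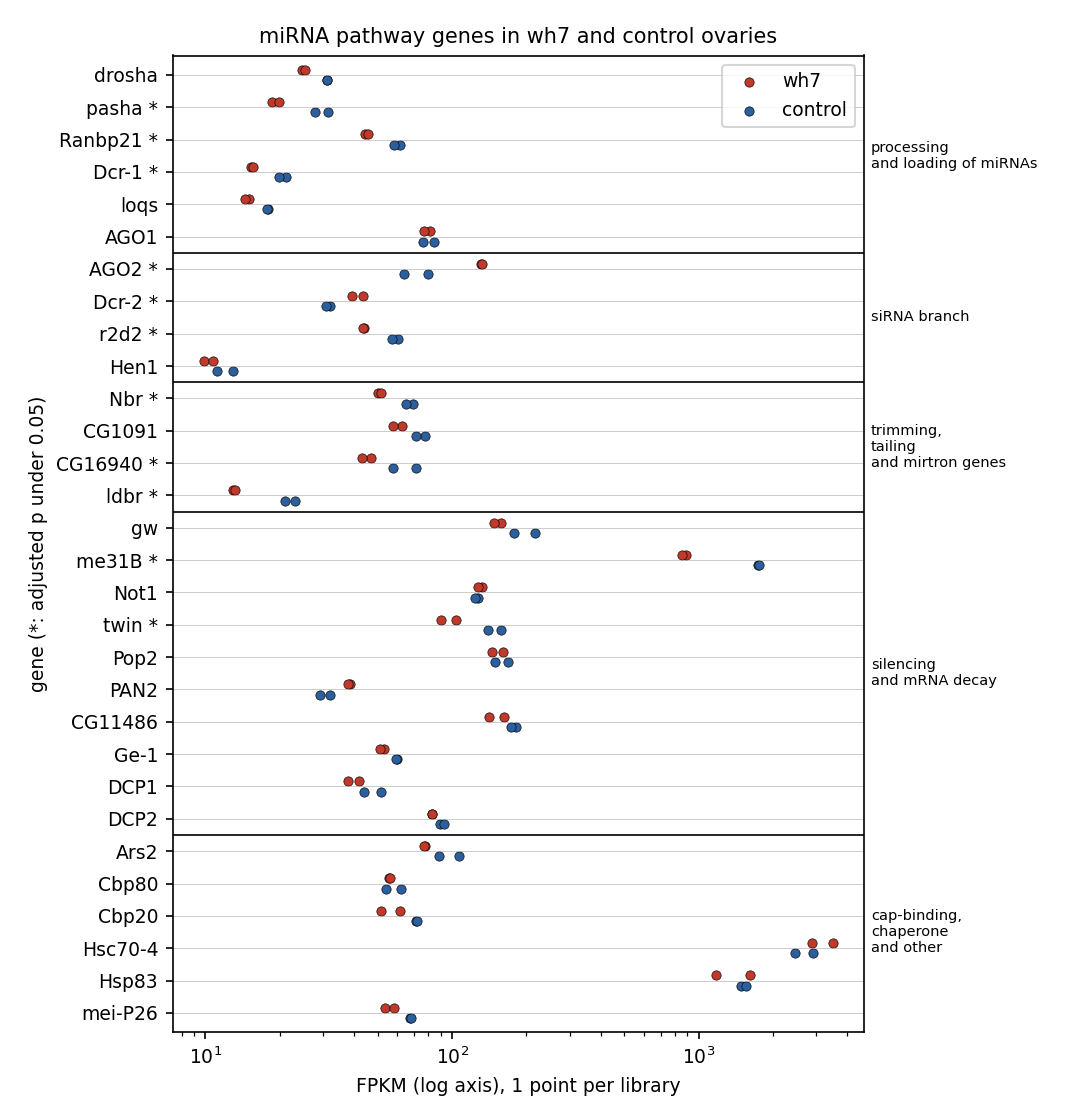
FPKM (log axis) of the 30 miRNA pathway genes in each library, wh7 in red above control in blue, grouped by role. Stars mark the 11 genes with a limma adjusted p under 0.05, of which AGO2 and Dcr-2 lie to the right of control and the other 9 to the left.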

How the data were processed

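Total RNA of 2 wh7 and 2 control ovary samples was sequenced with a strand-specific Agilent kit on an Illumina instrument, per the labels. The tools were Bowtie 0.12.2 and bcl2fastq 2.0, per the submitters' processing notes, in which 2 builds are listed, BDGP6 and mm8, with no step attached to either. No source used here names the program that made the expression values, its annotation or its use of strand. The authors deposited FPKM per library, in which 0.0001 stands for 0, per the file headers. The authors also deposited, per genotype and row, the FPKM, their ratio, the log2 of that ratio, a p-value and a q-value, of which only the p-value and q-value of precursors were used. The source names gave the groups. The samples' descriptions speak of a different experiment, so the level of wuho was checked against the groups. Every per-library column was used.

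A value of 0.0001 was set to 0. limma 3.58.1 (R 4.3.3) with a mean-variance trend was fitted to log2(FPKM + 1), wh7 minus control, over the 8580 rows of all gene types that reached 1 FPKM in 2 or more libraries, two-sided, with Benjamini-Hochberg adjustment over all of them and a threshold of 0.05. A fold is the ratio of mean FPKM, and the scale with a pseudocount of 1 understates the change of low rows. The fit was tested on simulated data with known changes. Precursor positions were taken from the Ensembl 115 annotation of BDGP6 by gene identifier: 235 of 238 matched, each inside its deposited locus, and for 41 of 41 precursors alone in their locus the deposited position equalled the annotated gene once 1 was added to the start. Of the 30 pathway genes, 6 were matched under another symbol.

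Reads were recovered by dividing FPKM by the worth of 1 read at the row's effective length, with fragment lengths of mean 200 and SD 80 bp and at least 26 bp. That implies about 23200000 reads per library, an estimate, since the table gives no totals.

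The precursors were taken by the authors' gene type. The precursors, gene lists and tests were chosen with earlier results of these data known. Named were all called precursors, the tested ones of highest mean, protein-coding rows of their loci and the pathway list. The single-library precursors, other hosts, primary transcripts and markers were named after their values were seen. Alternatives were pseudocounts of 0.1 and 0.01, no filter and a filter of 5 FPKM, quantile and median ratio scaling, protein-coding and precursor rows only, leaving out each library, and a replicate block. Added after seeing the data was a crossed replicate block.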

Additional observations from a re-analysis of the deposited data

How the results depend on the processing

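The counts of called rows kept within 1.5 times their value under both pseudocounts, both filters, both scalings and the fit to protein-coding and precursor rows only. Single calls did change. With no filter the calls of mir-4943, CG5953, Aph-4, Hsromega, grp, jigr1, wts, CR43836, Dcr-1, Dcr-2 and CG16940 were lost. With quantile normalization those of mir-4943, grp, jigr1, wts, CG42524, CR43836, Ranbp21, Dcr-1 and CG16940 were lost. Median ratio scaling lost that of Dcr-2. mir-4943 did not pass the filter of 5 FPKM, with which mir-4948 was called (limma adjusted p = 0.0486). Leaving out 1 library, with a lone sample assumed to vary like the other genotype, moved them most: called rows ranged from 764 (without control library 1) to 2363 (without wh7 library 1), against 3403 with all libraries, and called precursors from 0 (without either wh7 library, where mir-33, mir-4914 and mir-4940 no longer pass the filter) to 7 (without control library 2), against 4. Precursors called higher ranged from 0 to 6 and those called lower from 0 to 1, the 1 being mir-4977 without control library 2. Called protein-coding rows of precursor loci ranged from 19 to 39, against 60, and called pathway genes from 2 (without control library 1) to 9 (without wh7 library 1), against 11. AGO2, me31B, Mlc-c, Mmp2, MFS17, sty, SKIP and CG3394 were called in all 13. Of all calls, 53.5% were higher in wh7, against 88.6% without control library 1, 72.0% without control library 2, 67.6% with no filter and 41.4% with a filter of 5 FPKM.

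The replicate numbers are those of the description fields and share nothing else that is known. Deviations from the group means of same-numbered libraries correlated at -0.165 over rows, and crossed ones at 0.165. With the replicate block, 7 precursors were called, all 7 higher, and 3624 rows in all. With the numbers crossed, 2729 rows and 6 precursors were called.

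Some estimates changed direction, on the log2(FPKM + 1) scale, and the cause was not tested. With quantile normalization mir-4970 was 0.0851, Cyp4e2 0.0232, CR43651 -0.248, AGO1 0.0676, Ir76a -0.737 and CR43334 -0.991, the last 2 called lower (limma adjusted p = 0.0409 and 0.0282), and with median ratio scaling CG31689 was -0.0222. With 1 library left out, the estimates ranged from -1.05 to 1.03 for mir-4970, from -2.72 to 3.69 for mir-4977, from -0.0416 to 0.294 for ade2, from -0.101 to 0.0425 for CG6729, from -0.0461 to 0.0858 for CG31689, from -0.0831 to 0.0556 for AGO1 and from -0.0652 to 0.234 for CR43334. Depth limits the precursors: 22 of 30 whole values were 3 reads or fewer.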
